A study of Mus musculus with 16 samples.

Results

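The genes described here encode the nuclear subunits of mitochondrial complexes II, III, IV and V and cytochrome c. They were picked by gene symbol, under a rule that uses no measured value but was set with earlier results of these data known: Sdha to Sdhd for complex II, Cyc1 and the Uqcr genes for complex III, Cycs for cytochrome c, the Cox4i to Cox8 genes for complex IV and the Atp5 genes for complex V. By this rule 48 of the 18193 genes with a single-gene probe set were members: 4 of complex II, 9 of complex III, 1 for cytochrome c, 17 of complex IV and 17 of complex V. Each gene was read by its brightest probe set. Of the 48, 46 passed the filter on dim genes, and Cox6b2 and Cox7b2, isoforms best known from testis, did not. The mitochondrially encoded subunits are not analysed here, and neither is Cox7b.

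Complexes II and III pass electrons from succinate and from reduced ubiquinone towards cytochrome c, a small soluble carrier, and complex IV (cytochrome c oxidase) hands them to oxygen. Complexes III and IV pump protons while doing so, and complex V (ATP synthase) uses the returning protons to make ATP. The heart depends on this chain for nearly all of its ATP, and cardiac muscle carries muscle-type isoforms of several complex IV subunits beside the ubiquitous ones. The nuclear genes of the chain are known targets of the factors NRF-1, GABP (an ETS factor), YY1 and ERR and of the coactivators PGC-1alpha and PGC-1beta.

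Left ventricles were taken from wild-type mice (WT) and from PPARalpha-/- mice (KO), which lack a nuclear receptor that drives fatty acid use. In each genotype some mice were sham-operated and others had transverse aortic constriction (TAC), which narrows the aorta and loads the ventricle with pressure, for 28 days. Crossing genotype with operation gives 4 groups (WT sham, KO sham, WT TAC and KO TAC), with 4 Affymetrix arrays in each. The design asks which cardiac genes differ with PPARalpha at baseline and under sustained load. The labels give no strain, sex, age or pooling and do not say that the arrays are separate mice, so the spread behind each p-value may be technical. Ppara itself differed between KO and WT by -1.70 ± 0.17 (log2 difference ± standard error, limma) in sham (adjusted p = 5.71e-05) and by -1.92 ± 0.17 in TAC (adjusted p = 1.18e-05); whether its probes lie in the deleted part is not known here.

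Values are deposited signals, already scaled to 1 mean per array, and differences are on the log2 scale from limma fitted to all 16 arrays. A gene is said to rise or fall only at a Benjamini-Hochberg adjusted p under 0.05 over 10916 genes. The member probe sets lay at the bright end of the arrays: 43 of the 46 tested members were at or above the 94th percentile of brightness, the exceptions being Cox4i2, Cox7c and Cox8c. Brightness compares probe sets, not transcript levels. WT TAC replicate 3 stood apart before any comparison, with the highest median signal of the 16 arrays (163; the lowest was 108.3) and the lowest mean correlation with its own group (0.94). The 9 hybridisation spike-in probe sets are meant to report on hybridisation. They were read from the same scaled signals, so their values also move with each array's scaling and are not independent of the tissue. Their mean log2 value was 13.00 ± 0.08 (SD, n = 4) in sham and 13.37 ± 0.21 in TAC hearts of WT mice. In KO mice it was 13.23 ± 0.20 in sham and 12.89 ± 0.32 in TAC hearts.

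Taken as a family, the subunit genes differed most between the 2 groups with TAC. The mean of the 46 members, relative to the WT sham mean, was -0.14 ± 0.13 (SD, n = 4) in KO TAC, 0.08 ± 0.14 in KO sham and 0.15 ± 0.10 in WT TAC, against an SD of 0.07 in WT sham. The 4 WT TAC arrays lay at 0.08, 0.07, 0.29 and 0.14, and the 4 KO TAC arrays at 0.00, -0.19, -0.29 and -0.08. Every WT TAC array was above every KO TAC array, while the KO sham arrays (0.08, 0.21, -0.11 and 0.14) overlapped the WT sham arrays (-0.11, 0.03, 0.03 and 0.05). The members' share of the summed signal of an array was 4.53% ± 0.15 in sham and 4.96% ± 0.28 in TAC hearts of WT mice, and 4.74% ± 0.29 in sham and 4.21% ± 0.28 in TAC hearts of KO mice.

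**Figure D1:**
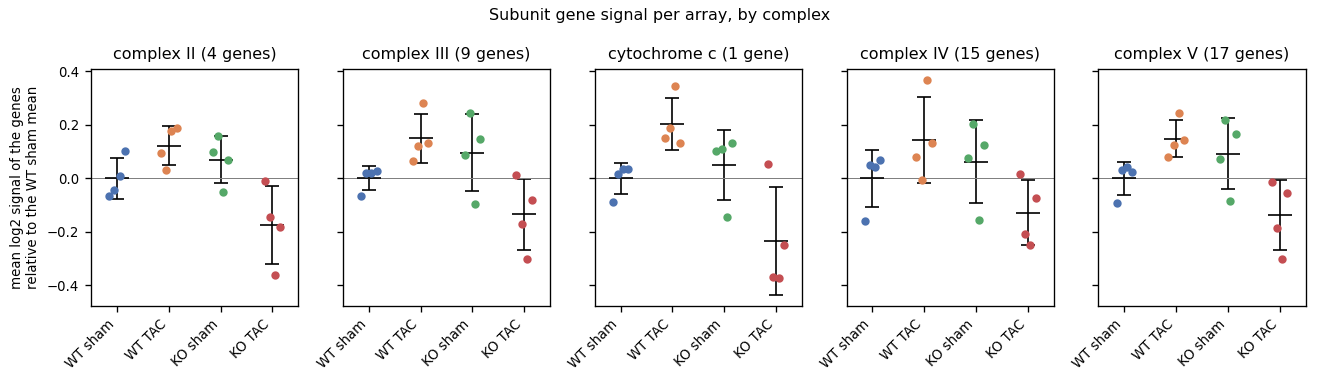
Mean log2 signal of the tested genes of each complex on each of the 16 arrays, relative to the WT sham mean (vertical axis); points are arrays, the bar is the group mean and the whisker 1 SD (n = 4). In all 5 panels the KO TAC mean is the lowest and the WT TAC mean the highest as deposited; under quantile normalization the WT TAC medians of complexes III, IV and V and of cytochrome c against WT sham turn negative.

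The order of the groups was the same as that of the spike-ins. WT TAC replicate 3 was the highest array of its group, and KO TAC replicate 3 the lowest of its group, on both the spike-ins and the members' mean. The same held at the lower end for WT sham replicate 1 and KO sham replicate 3. With the spike-in mean as a covariate, the members' median difference between KO TAC and WT TAC was -0.08 instead of -0.31. Without the 3 arrays of most extreme spike-in signal (KO TAC replicates 2 and 3, WT TAC replicate 3) it was -0.15, with 3 of 46 members positive. Among the 504 other genes in the brightest 5% of tested genes, the median of the same comparison was -0.10 and 72% were negative. Under quantile normalization the median of those 504 genes was -0.01. That method gives every array the same set of values, so it takes out much of any shift shared by the brightest genes. It therefore cannot separate a scaling effect from a shared change of the members. The actin control's 3'-over-5' signal ratio, which tracks RNA and labelling quality, was 1.18 to 1.36 in KO TAC, 1.52 to 1.75 in KO sham, 1.28 to 1.53 in WT TAC and 1.47 to 1.56 in WT sham. For the Gapdh control the same ratio was 0.765 to 0.789 in KO TAC and 0.738 to 0.769 in KO sham. It was 0.747 to 0.799 in WT TAC and 0.719 to 0.786 in WT sham, so the Gapdh ranges of the groups overlapped. What part hybridisation, array scaling and RNA quality had in the members' differences was not tested.

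**Figure D2:**
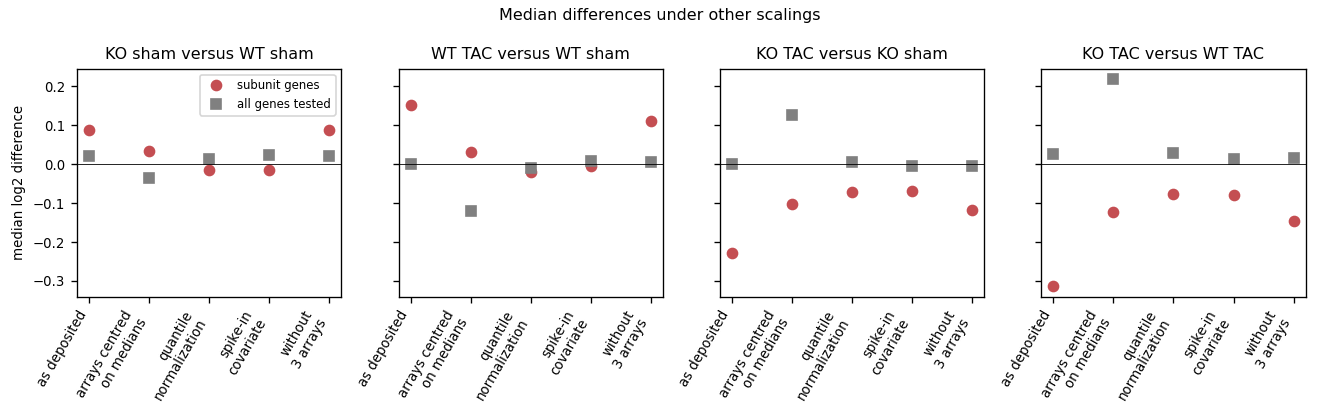
Median log2 difference (vertical axis) of the 46 subunit genes (circles) and of all 10916 genes tested (squares) in 4 comparisons under 5 settings (horizontal axis). The members' median in KO TAC versus WT TAC is -0.31 as deposited and between -0.15 and -0.08 under the other 4 settings, whereas the medians of WT TAC and of KO sham against WT sham turn to about 0 or below under quantile normalization and the spike-in covariate.

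The cell types of the samples were checked with marker lists. Cardiomyocyte markers (8 of 8 tested, Myh6, Tnnt2 and Myl2 among them) had means of -0.05 ± 0.12 in KO TAC, 0.12 ± 0.12 in KO sham and 0.25 ± 0.16 in WT TAC relative to WT sham, and none was called in any of the 5 comparisons. Their summed log2 signal ranged over 18.70 to 18.93 in sham and 18.95 to 19.40 in TAC hearts of WT mice, and 18.78 to 19.06 in sham and 18.61 to 18.92 in TAC hearts of KO mice, the same order of group means as for the subunit genes. Fibroblast markers (6 of 6 tested) had means of 0.99 ± 0.15 in KO TAC, 0.00 ± 0.15 in KO sham and 0.37 ± 0.18 in WT TAC, with summed log2 signals of 15.17 to 15.26 in sham and 15.20 to 15.63 in TAC hearts of WT mice, and 15.12 to 15.36 in sham and 15.74 to 15.94 in TAC hearts of KO mice. In KO TAC, 3 of the 6 fibroblast markers were called higher against KO sham and 3 against WT TAC. Macrophage markers (6 of 6 tested) had means, in the same order, of 0.50 ± 0.14, 0.26 ± 0.04 and 0.05 ± 0.18, and summed log2 signals of 13.65 to 13.87 in sham and 13.62 to 13.95 in TAC hearts of WT mice, and 14.02 to 14.10 in sham and 14.08 to 14.40 in TAC hearts of KO mice. Of the macrophage markers, 2 of 6 were called higher in KO TAC than in WT TAC, C1qa (0.48 ± 0.12, adjusted p = 0.0438) and C1qb (0.64 ± 0.10, adjusted p = 0.00428), both subunits of complement C1q. No fibroblast or macrophage marker was at 0. The atrial list was split in its differences with TAC. Nppa, the atrial natriuretic peptide gene that loaded ventricles also express, rose with TAC in the knockout (1.24 ± 0.16, adjusted p = 0.000659). With TAC in WT its difference was 1.03 ± 0.16, uncalled (limma adjusted p = 0.107). The responses of the genotypes differed by 0.22 ± 0.22, also uncalled (limma adjusted p = 0.769). Nppa was also higher in KO TAC than in WT TAC (0.67 ± 0.16, adjusted p = 0.0356). Myl4, Myl7 and Sln had negative, uncalled differences with TAC in both genotypes, with standard errors of 0.79 to 1.53. In KO TAC against WT TAC these genes had positive, uncalled differences, in that order 1.46 ± 0.79, 2.95 ± 1.44 and 3.12 ± 1.53. Between KO sham and WT sham their differences were also positive and uncalled, at 1.04, 1.47 and 1.87. Of the skeletal muscle list only Acta1 and Myot, which the heart also expresses, were tested. Against KO sham both rose in KO TAC, Acta1 by 1.78 ± 0.30 (adjusted p = 0.00564) and Myot by 0.64 ± 0.16 (adjusted p = 0.047). Myot was also higher in KO than in WT, by 0.90 ± 0.16 in sham (limma adjusted p = 0.0125) and 1.32 ± 0.16 in TAC hearts (0.00032). Acta1 was not called between the genotypes. Myh1, Myh2, Myh4 and Tnnt3, the more specific genes of that list, were too dim to test. In these bulk samples, fewer cardiomyocytes and less RNA per cardiomyocyte cannot be told apart, and the part of cell makeup in the members' differences was not tested.

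Between the genotypes under TAC, 1 member fell in KO TAC, Cycs, out of 46 tested, and none rose; among all genes tested 1.14% were called lower and 1.32% higher, so 1 in 46 is close to the background. The median difference of the members was -0.31, with 44 of 46 negative, against 0.03 for all genes; quantile normalization kept the sign of the median (-0.08) but left 14 members positive, and centring arrays on their medians left 9 (-0.12). At an unadjusted p under 0.05, 32 members were lower and 0 higher in limma, beside 7.63% of all genes lower and 8.8% higher. In 27 members all 4 KO TAC arrays lay below all 4 WT TAC arrays, against 4.42% of all genes. That count was 12 after median centring (1.16% of all genes) and 5 after quantile normalization (3.86%), where Atp5e, Atp5g2, Cox8b, Cyc1 and Uqcrfs1 made it up. The other probe sets of the members that were bright enough to read, 36 of 25 genes, gave a median of -0.24 with 34 negative.

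Cytochrome c was the called gene. The Cycs signals were 65928, 70814, 71801 and 71803 in sham and 77731, 79726, 89028 and 76752 in TAC hearts of WT mice, and 75213, 75569, 63301 and 76760 in sham and 72754, 54239, 54024 and 58900 in TAC hearts of KO mice. All KO TAC arrays were below all WT TAC arrays, and KO TAC replicate 1 was well above the other 3 and inside the range of the sham groups. Cycs fell by 26.2% between WT TAC and KO TAC (log2 difference -0.44 ± 0.11, limma adjusted p = 0.0466). Of 2 other bright Cycs probe sets, one gave -0.34 and the other -0.18, and a dim one (mean signal 93.3) gave 0.90; with the probe sets averaged the value was -0.01 (adjusted p = 0.981). Over 30 alternatives the call held in 8, with values from -0.53 to -0.01 and adjusted p from 0.00639 to 0.981. When 1 array was left out, it held without KO TAC replicate 1 (adjusted p = 0.0134) or KO sham replicate 3 (0.0442) and was lost without any of the other 14, with adjusted p up to 0.151.

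**Figure D3:**
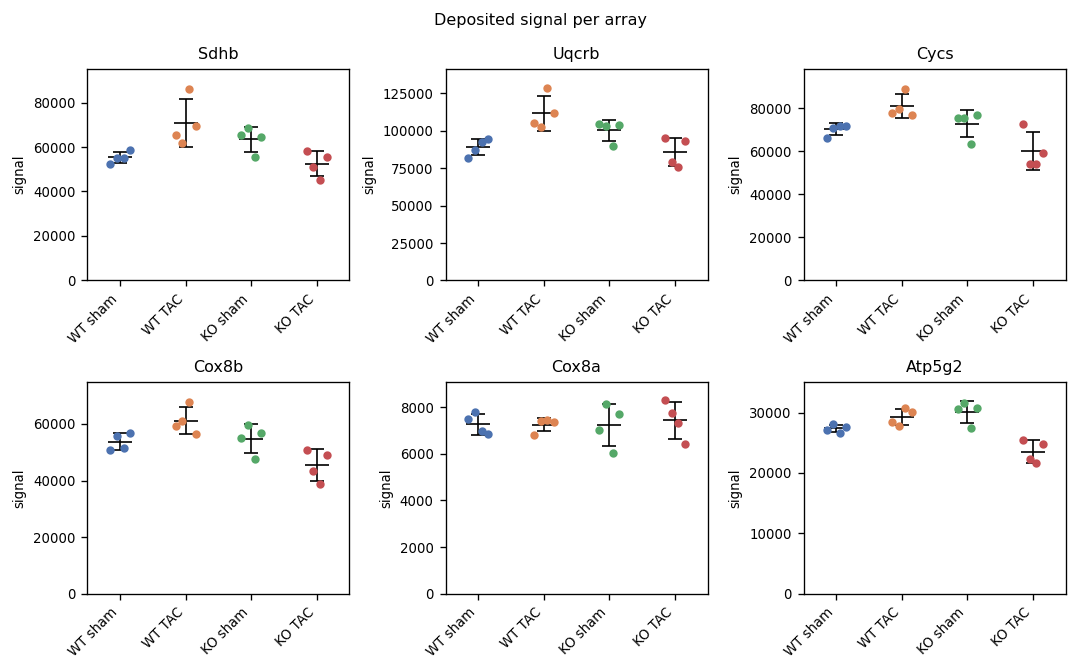
Deposited signal (vertical axis, from 0) on each of the 16 arrays for 6 genes: Sdhb, Uqcrb, Cycs, Cox8b, Cox8a and Atp5g2; the bar is the group mean and the whisker 1 SD (n = 4). The 4 KO TAC arrays lie below the 4 WT TAC arrays for all but Cox8a, whose groups overlap.

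The promoters of the members were searched for motifs of the factors named above, in the 250 bases before the start of the gene, as a description with no test. Of the 48 members, 36 had a promoter in the RefSeq table (build GRCm38.p6). The NRF-1 core CGCATGCG, searched on both strands, was found in 6 of the 36 (16.7%) and in 1.75% of all 27025 genes. The windows below run 5′ to 3′ on the strand of the gene, with the NRF-1 core in capitals. They are the 6 members with that core; Cycs and Atp5g2, the genes called in these comparisons, are among them, and the motif was picked for printing with this known.
Cycs, chr6:50566591-50566662, minus strand: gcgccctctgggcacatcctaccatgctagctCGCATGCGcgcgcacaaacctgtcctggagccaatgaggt
Atp5g2, chr15:102671049-102671120, minus strand: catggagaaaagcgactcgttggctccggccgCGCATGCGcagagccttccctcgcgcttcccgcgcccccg
Atp5k, chr5:108434409-108434480, minus strand: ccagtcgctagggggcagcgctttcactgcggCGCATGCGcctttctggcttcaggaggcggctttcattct
Atp5j, chr16:84835084-84835155, minus strand: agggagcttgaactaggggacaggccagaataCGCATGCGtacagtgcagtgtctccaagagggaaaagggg
Cox6a1, chr5:115349080-115349151, minus strand: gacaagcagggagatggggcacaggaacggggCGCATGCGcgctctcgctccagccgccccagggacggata
Atp5l, chr9:44920944-44920992, minus strand: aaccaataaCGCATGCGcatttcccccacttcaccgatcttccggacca
The core began 61 bases before the start in Cycs, 41 in Atp5g2, 49 in Atp5k, 147 in Atp5j, 161 in Cox6a1 and 241 in Atp5l. The 6 genes did not share 1 value: between KO TAC and WT TAC their differences were -0.44 for Cycs, -0.32 for Atp5g2, -0.32 for Atp5k, -0.30 for Atp5j, -0.15 for Cox6a1 and -0.20 for Atp5l. The ETS letters CCGGAAG, read on both strands, were in 9 members (25%) and 7.83% of all genes. The ERR letters TCAAGGTCA were in 1 member, Atp5g3 (2.78%, against 0.422%), and the YY1 letters AAGATGGCG in 1, Atp5j (2.78%, against 0.71%). The DR1 element of PPAR receptors, AGGTCANAGGTCA, was in 0 of 36 members and 0.0407% of all genes. The ERR and DR1 letters share the letters AGGTCA, and a match is a description of these letters, not a site.

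In complex II, the enzyme shared with the citric acid cycle, the median difference between KO TAC and WT TAC was -0.28 (-0.12 under quantile normalization), with all 4 genes negative. Sdhb, the iron-sulphur subunit, had signals of 65532, 61614, 86087 and 69270 in WT TAC and 58156, 51024, 45210 and 55422 in KO TAC. The groups did not overlap, and the WT TAC mean was drawn up by replicate 3. Sdhb differed by -0.42 ± 0.12 (adjusted p = 0.0775), short of the threshold. Its sham signals were 52365, 55021, 55133 and 58727 in WT and 65236, 68419, 55587 and 64424 in KO. Sdha, the flavoprotein that oxidises succinate, differed by -0.29 ± 0.12, and the membrane anchors Sdhc and Sdhd by -0.21 ± 0.16 and -0.27 ± 0.11. KO TAC and WT TAC overlapped in these 3 genes.

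In complex III, the median between KO TAC and WT TAC was -0.28 (-0.10 under quantile normalization), with all 9 genes negative. The groups did not overlap in 5, beside 4.42% of all genes lower, and under quantile normalization only in Cyc1 and Uqcrfs1. Uqcrb, a small subunit that binds ubiquinone, had the smallest p. Its signals were 81978, 87461, 92768 and 94450 in sham and 105031, 102265, 128389 and 111784 in TAC hearts of WT mice, and 104305, 103267, 89934 and 104103 in sham and 95380, 79471, 76152 and 92898 in TAC hearts of KO mice. Uqcrb thus had its highest mean in WT TAC and its KO TAC arrays spanned the WT sham range. It differed between the TAC groups by -0.38 ± 0.11 (adjusted p = 0.0808). Quantile normalization turned its sign, to 0.05. Uqcrb is at percentile 100 of brightness, where that method leaves arrays little room to differ. The nuclear-encoded subunits that carry the electrons gave -0.45 ± 0.14 for Cyc1 (cytochrome c1) and -0.39 ± 0.12 for Uqcrfs1 (the Rieske protein). The core proteins gave less, -0.08 ± 0.09 for Uqcrc1 and -0.18 ± 0.09 for Uqcrc2. The small subunits Uqcrh, Uqcr10, Uqcrq and Uqcr11 lay at -0.32, -0.28, -0.28 and -0.20.

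In complex IV, the median between KO TAC and WT TAC was -0.33 (-0.05 under quantile normalization), with 13 of 15 genes negative. The groups did not overlap in 8, beside 4.42% of all genes lower, and under quantile normalization only in Cox8b. Cox8b, the muscle isoform of the smallest subunit, came nearest to the threshold. Its signals were 50696, 55651, 51536 and 56803 in sham and 59142, 61021, 67847 and 56550 in TAC hearts of WT mice, and 55039, 59690, 47551 and 56782 in sham and 50959, 43276, 38687 and 49184 in TAC hearts of KO mice. The KO TAC arrays were all below the WT TAC arrays, and the difference was -0.43 ± 0.11 (adjusted p = 0.0522). Cox8a, the ubiquitous isoform, had signals of 6820, 7410, 7436 and 7371 in WT TAC and 8302, 7763, 7313 and 6417 in KO TAC. These overlapped, and the difference was 0.03 ± 0.11. Other subunits of the complex gave -0.43 ± 0.13 for Cox5b, -0.42 ± 0.11 for Cox7a2, -0.37 ± 0.12 for Cox6b1, -0.35 ± 0.10 for Cox7a1, -0.33 ± 0.12 for Cox4i1 and -0.09 ± 0.08 for Cox7a2l, a homologue of the Cox7a subunits found in supercomplexes. Cox7c had the lowest value, -0.55 ± 0.28, from a probe set with signals of only 111.9 to 378.5 over the 16 arrays.

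In complex V, the median between KO TAC and WT TAC was -0.31 (-0.04 under quantile normalization), with all 17 genes negative. The groups did not overlap in 12, beside 4.42% of all genes lower, and under quantile normalization only in Atp5e and Atp5g2. Among the catalytic head genes, the differences were -0.33 ± 0.12 for Atp5b (beta), -0.36 ± 0.10 for Atp5c1 (gamma), -0.32 ± 0.12 for Atp5d (delta), -0.31 ± 0.10 for Atp5e (epsilon) and -0.19 ± 0.10 for Atp5a1 (alpha). The 3 genes for the same c-ring protein gave -0.42 ± 0.12 for Atp5g1, -0.32 ± 0.09 for Atp5g2 (adjusted p = 0.0692) and -0.43 ± 0.13 for Atp5g3. In the stalk, Atp5h (subunit d) gave -0.43 ± 0.12, Atp5o (OSCP) -0.30 ± 0.12, Atp5j (F6) -0.30 ± 0.09 and Atp5pb (subunit b) -0.22 ± 0.10. The small membrane subunits ran from Atp5k (subunit e, -0.32 ± 0.11) to Atp5mpl (-0.04 ± 0.11), with Atp5md, Atp5l and Atp5j2 at -0.23, -0.20 and -0.15.

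**Figure D4:**
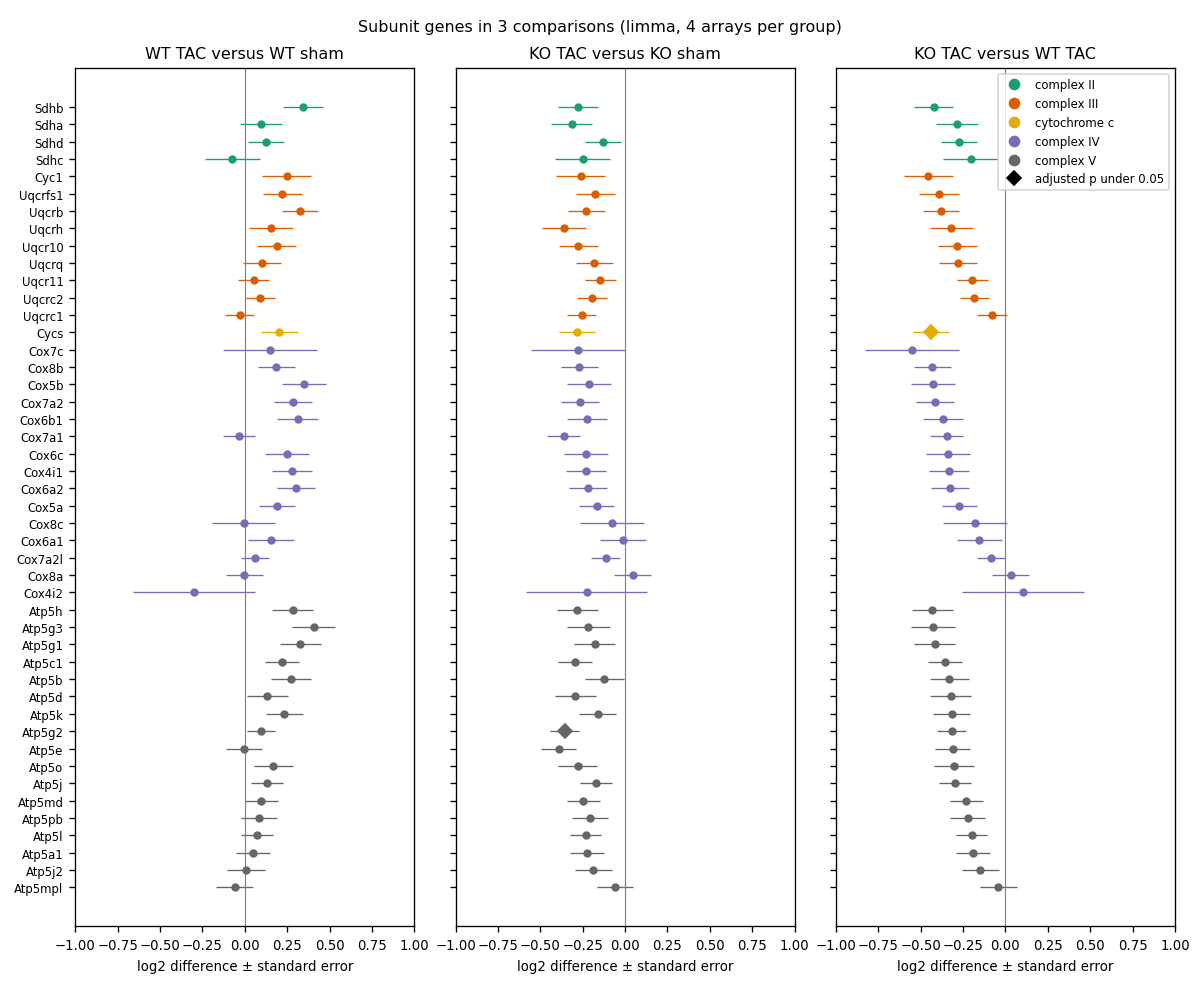
Log2 difference ± standard error (horizontal axis) of the 46 tested subunit genes, grouped by complex, in 3 comparisons; diamonds mark an adjusted p under 0.05. Against WT TAC, 44 of 46 values in KO TAC are negative as deposited, and 14 are positive under quantile normalization; the diamonds are Atp5g2 against KO sham and Cycs against WT TAC.

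TAC in the knockout was compared with KO sham, using the same KO TAC arrays as above. In this comparison 1 of 46 members fell, Atp5g2, and none rose; 0.98% of all genes were called lower and 1.58% higher. The members' median was -0.23, with 45 of 46 negative, against 0.00 for all genes; the sign of the median held under quantile normalization (-0.07, 8 members positive), median centring (-0.10, 6 positive) and the spike-in covariate (-0.07, 12 positive). At an unadjusted p under 0.05, 20 members were lower and 0 higher, beside 7.98% of all genes in each direction. Groups did not overlap for 7 members, all lower, against 5.35% of all genes: Sdha, Uqcrc1, Uqcrc2, Cox7a1, Atp5a1, Atp5g2 and Atp5o. After median centring there were 2, Atp5e and Atp5g2 (1.56% of all genes). After quantile normalization there were 8, also lower (5.41% of all genes), and of the 7 named only Atp5g2 and Cox7a1 were among them.

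Atp5g2, one of the genes of the c-ring that turns in ATP synthase, had signals of 27078, 28177, 26639 and 27540 in sham and 28425, 27788, 30738 and 30042 in TAC hearts of WT mice, and 30586, 31626, 27480 and 30803 in sham and 25524, 22343, 21560 and 24723 in TAC hearts of KO mice. All 4 KO TAC arrays were below the other 12 arrays. Atp5g2 fell by 21.9% from KO sham to KO TAC (-0.36 ± 0.09, adjusted p = 0.0385). Its value ranged from -0.40 to -0.20 over 30 alternatives and its adjusted p from 0.00528 to 0.874, with the call kept in 12. Quantile normalization gave -0.23 (adjusted p = 0.108). Atp5g2 was read by the brightest of its 3 probe sets, and with these averaged the value was -0.20 (adjusted p = 0.874). With 1 array left out the call was kept in 6 of 16 fits, with adjusted p from 0.0347 to 0.124. It was lost without KO sham replicate 1, 2 or 4 (0.0825, 0.106 and 0.0979), without KO TAC replicate 2, 3 or 4 (0.124, 0.116 and 0.0598), without WT TAC replicate 1 (0.0522), and without WT sham replicate 2, 3 or 4 (0.0554, 0.0527 and 0.0547).

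The complexes gave similar medians between KO TAC and KO sham: -0.26 for complex II, -0.23 for complex III, -0.23 for complex IV, -0.23 for complex V and -0.28 for cytochrome c, where quantile normalization gave -0.15, -0.03, -0.08, -0.06 and -0.10. Atp5e, the epsilon subunit, had the most negative difference, -0.39 ± 0.10 (adjusted p = 0.064). Cox7a1, the muscle isoform of subunit 7a, gave -0.36 ± 0.10 (adjusted p = 0.0658), and Uqcrh, the hinge protein of complex III, -0.36 ± 0.13. The smallest differences were 0.05 ± 0.11 for Cox8a, -0.01 ± 0.13 for Cox6a1 and -0.06 ± 0.11 for Atp5mpl. Cox8a and Atp5mpl also gave values near 0 between the TAC groups, which share the KO TAC arrays.

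TAC in the wild type was compared with WT sham. None of 46 members was called by limma, as for all genes tested (0% higher and 0% lower), and 13 were higher and 0 lower at an unadjusted p under 0.05, beside 4.3% of all genes higher and 3.33% lower. The members' median was 0.15, with 38 of 46 positive, but -0.02 with 14 positive under quantile normalization and 0.00 with 21 positive with the spike-in covariate. In 16 members the WT TAC arrays were all above the WT sham arrays, against 2.64% of all genes. After median centring this count was 8 (0.797% of all genes) and after quantile normalization 0 (1.88% of all genes). Under quantile normalization 2 members, Cox7a1 and Uqcrc1, had all WT TAC arrays lower, against 1.87% of all genes. The largest differences as deposited were 0.41 ± 0.13 for Atp5g3, 0.35 ± 0.13 for Cox5b, 0.34 ± 0.12 for Sdhb and 0.33 ± 0.12 for Atp5g1, with Atp5g2, the third c-ring gene, at 0.10 ± 0.09. Atp5g3 had signals of 53094, 56385, 58010 and 63113 in WT sham and 69729, 64306, 95336 and 79324 in WT TAC. Those groups did not overlap, and its adjusted p of 0.58 was the smallest of the members.

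At baseline, KO sham was compared with WT sham. None of 46 members was called by limma (0.229% of all genes were called higher and 0.513% lower), and 0 had an unadjusted p under 0.05, beside 5% of all genes higher and 3.52% lower. The members' median was 0.09, with 39 of 46 positive, but -0.02 under quantile normalization, -0.01 with the spike-in covariate and 0.03 after median centring. Without KO sham replicate 3 the median was 0.15 and without KO sham replicate 2 it was 0.04, and it was 0.06 without WT sham replicate 1. No member had groups that did not overlap, against 3.29% of genes higher and 2.62% lower. After quantile normalization 4 of 46 members (Cox7a1, Cox8b, Cycs and Uqcr11) had all KO sham arrays lower, against 2.89% of all genes. The differences ran from -0.12 ± 0.28 for Cox7c to 0.20 ± 0.13 for Atp5g3, with 0.19 ± 0.12 for Sdhb and 0.15 ± 0.09 for Uqcrc1.

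The test of whether the response to TAC differed between genotypes (the interaction) called 0 of 46 members and 0% of all genes in either direction with limma. At an unadjusted p under 0.05, 31 members were lower and 0 higher, beside 5.59% of all genes lower and 4.75% higher. The median was -0.40 with 44 of 46 negative, and -0.03 with 16 positive under quantile normalization, where cytochrome c turned to 0.00. The lowest values were -0.63 ± 0.18 for Atp5g3 (adjusted p = 0.322) and -0.62 ± 0.17 for Sdhb (adjusted p = 0.29).

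Complex IV carries pairs of muscle and ubiquitous isoforms, and the ratio of a pair within an array does not move with a scaling factor. The log2 ratio of Cox7a1 (muscle) to Cox7a2 (ubiquitous), relative to the WT sham mean, was 0.05, 0.03, -0.01 and -0.07 in WT sham. It was -0.33, -0.24, -0.12 and -0.32 in KO TAC, -0.28, -0.09, -0.11 and -0.15 in KO sham and -0.28, -0.21, -0.52 and -0.26 in WT TAC. All 12 arrays of these groups were below the 4 WT sham arrays, and the 3 groups overlapped one another. The means were -0.25 ± 0.10 (SD, n = 4) in KO TAC, -0.15 ± 0.09 in KO sham and -0.32 ± 0.14 in WT TAC. Under quantile normalization these means were, in the same order, -0.23, -0.12 and -0.20, again with no array inside the WT sham range. With the second Cox7a2 probe set they were -0.11 ± 0.07, -0.08 ± 0.06 and -0.13 ± 0.10, and KO TAC then overlapped WT sham.

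**Figure D5:**
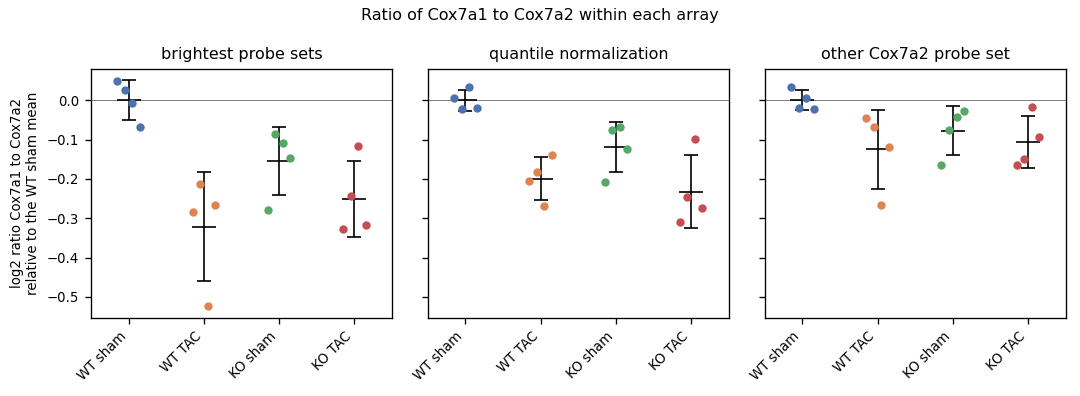
Log2 ratio of Cox7a1 to Cox7a2 on each of the 16 arrays, relative to the WT sham mean (vertical axis), with the brightest probe sets, after quantile normalization and with the other Cox7a2 probe set; the bar is the group mean and the whisker 1 SD (n = 4). In the first 2 panels all 12 arrays outside WT sham lie below the WT sham arrays, and in the third KO TAC overlaps WT sham.

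The signals behind this ratio differed between the 2 genes. The Cox7a1 signals were 44937, 47000, 49749 and 46974 in sham and 46294, 49020, 43672 and 45297 in TAC hearts of WT mice, and 43953, 53268, 40919 and 48921 in sham and 40088, 34551, 33992 and 36558 in TAC hearts of KO mice. Cox7a1 thus overlapped between WT sham and WT TAC, and its 4 KO TAC arrays were below the other 12. The Cox7a2 signals were 57754, 61380, 66463 and 65525 in sham and 74926, 75567, 83506 and 72385 in TAC hearts of WT mice, and 70936, 75233, 58628 and 71975 in sham and 66827, 54406, 48979 and 60603 in TAC hearts of KO mice. Cox7a2 was above the WT sham range on all WT TAC arrays (0.29 ± 0.11, adjusted p = 0.621; 0.00 under quantile normalization).

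The ratio of Cox8b to Cox8a, again muscle to ubiquitous, was -0.13, -0.05, 0.00 and 0.17 in sham and 0.23, 0.16, 0.31 and 0.06 in TAC hearts of WT mice, and 0.08, -0.01, 0.09 and 0.00 in sham and -0.26, -0.40, -0.48 and 0.06 in TAC hearts of KO mice. KO TAC replicate 4 lay with the other groups and the other 3 KO TAC arrays below all of them. The mean was -0.27 ± 0.24 in KO TAC and 0.19 ± 0.11 in WT TAC, and under quantile normalization -0.28 ± 0.17 and -0.07 ± 0.12. KO sham went from 0.04 ± 0.05 to -0.14 ± 0.15 under quantile normalization, where it overlapped KO TAC. The ratio of Cox6a2 (muscle) to Cox6a1 (ubiquitous) was -0.14, -0.04, -0.04 and 0.23 in sham and 0.05, -0.21, 0.44 and 0.31 in TAC hearts of WT mice, and 0.16, -0.03, 0.36 and 0.25 in sham and -0.13, 0.01, -0.10 and 0.13 in TAC hearts of KO mice. Those groups overlapped throughout. Cox4i2, an isoform known from lung and from low oxygen, was dim, with signals of 68.1 to 297.3 over the 16 arrays, and its difference between the TAC groups was 0.10 ± 0.36.

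The other genes of the pathway were read from lists of assembly factors and regulators, of which 50 of 53 genes were on the array and 48 were tested. Of these 48, 1 rose between KO sham and KO TAC, beside 1.58% of all genes called higher. Likewise 1 was higher in KO TAC than in WT TAC, beside 1.32%, so both counts are close to the background. None was called in the other 3 comparisons or lower in any. Cox18, which inserts a mitochondrially made complex IV subunit into the inner membrane, was 0.77 ± 0.13 higher in KO TAC than in WT TAC (adjusted p = 0.00428), and the call was kept in 27 of 30 alternatives and lost with the spike-in covariate (0.64, adjusted p = 0.137), without KO TAC replicates 2 and 3 and WT TAC replicate 3 (0.64, adjusted p = 0.119) and with only the arrays compared (adjusted p = 0.0812). Between the sham groups Cox18 differed by 0.58 ± 0.13 (adjusted p = 0.0508). Cox19, an assembly factor linked to copper delivery, rose by 0.58 ± 0.13 with TAC in the knockout (adjusted p = 0.0329, kept in 17 of 30 alternatives). With 1 array left out, that call was lost without KO sham replicate 1, 3 or 4 (adjusted p = 0.0597, 0.0916 and 0.0989) or any KO TAC array (adjusted p = 0.0581, 0.112, 0.0526 and 0.0617 for replicates 1 to 4), and kept in the other 9 fits. The median of all 48 was -0.04 between KO TAC and WT TAC, beside -0.31 for the 46 subunit genes. These lists were not matched in brightness to the subunit genes. The 504 other genes in the brightest 5% had a median of -0.10 in that comparison.

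None of the 14 tested regulators was called in any of the 5 comparisons. At an unadjusted p under 0.05 in limma, 0 were higher and 1 lower for TAC in WT, beside 4.3% and 3.33% of all genes. For TAC in KO these counts were 0 and 3, beside 7.98% of all genes in each direction. For the interaction they were 1 and 0, beside 4.75% and 5.59%. Between the genotypes they were 0 in either direction, in sham and in TAC hearts. Ppargc1a, which encodes PGC-1alpha, differed by -0.43 ± 0.22 between KO TAC and WT TAC (adjusted p = 0.344), and Ppargc1b by -0.23 ± 0.15. Esrra, encoding ERRalpha, differed by -0.41 ± 0.16 with TAC in WT (adjusted p = 0.621) and by -0.41 ± 0.16 with TAC in KO (adjusted p = 0.222), and Esrrg by 0.30 ± 0.15 between the TAC groups. Nrf1, the factor whose core is printed above, differed by -0.24 ± 0.15 between KO TAC and WT TAC (adjusted p = 0.454), and Gabpa by -0.05 ± 0.18. Tfam, which packages and transcribes mitochondrial DNA, gave 0.19 ± 0.13 in that comparison.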

How the data were processed

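The authors' deposited signal intensity, 1 linear value per probe set and array, came from GCOS 1.4 according to the submitters' processing notes; per array, the trimmed mean (2nd to 98th percentile) was 500. RNA was extracted with Trizol and labelled with biotin in 1 cycle, per the labels' protocols. A floor of 11.9, the 10th percentile, preceded log2. Of 45101 probe sets, 34945 carried 1 gene; the brightest stood for each of 18193 genes, and the dimmest 40% were left out, which left 10916. Limma 3.58.1 (R 4.3.3) was fitted to 16 arrays with 1 coefficient per group and Benjamini-Hochberg adjustment (two-sided, under 0.05). The fit was tested on simulated data with log2 changes of 1 and 2 only. Those are larger than any member's difference, so recovery at the members' sizes is not known. Standard errors are limma's. Array number limits precision.

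The members and lists were chosen with earlier results of these data known. Per-array values are given for called members, isoform pairs and the gene of smallest p per complex; Atp5g3 was added after its values were seen. Replicate numbers were not used to pair arrays in the main fit. Correlations of same-numbered arrays ran from -0.19 to 0.14, and whether such arrays share a batch is not known here.

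Alternatives were other scalings, floors, filters, probe set rules, variance models, a replicate block and arrays left out. Endothelial, brown fat and smooth muscle markers were also read: mean differences from WT sham in WT TAC, KO sham and KO TAC were 0.15, -0.05 and 0.07 (endothelial), 0.19, -0.34 and -0.28 (brown fat), and 0.20, -0.27 and -0.09 (smooth muscle), with none called in any comparison.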

Additional observations from a re-analysis of the deposited data

Results flagged for a closer look

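Single arrays far from the other 3 of their group were looked for among the complex means and the genes with per-array values; chance flags about 1 in 20 groups. WT sham replicate 1 was low in the mean of all members (-0.1075 relative to the WT sham mean), complex III (-0.0664), complex IV (-0.1603), complex V (-0.0936) and cytochrome c (-0.0873), and its Cycs log2 signal was 16.0086. Those values come from 1 array and share its scaling; the same array had the lowest spike-in signal of its group. KO sham replicate 3 was low in cytochrome c (-0.146), in Cycs (15.9499), in Uqcrb (16.4566) and in Cox4i2 (7.225), and it too had the lowest spike-in signal of its group. Cox4i2 was low on WT TAC replicate 2 (6.0896), Cox8a was low on WT TAC replicate 1 (12.7356), and Cox6a1 was high on KO TAC replicate 1 (14.1608). What set these arrays apart was not tested.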

How the results depend on the processing

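The members' median kept its sign in 30 of 30 alternatives for KO TAC against KO sham (-0.29 to -0.07) and against WT TAC (-0.35 to -0.08), in 29 of 29 for the interaction (-0.45 to -0.03), and in 28 of 30 for each of the comparisons with WT sham (-0.02 to 0.15 for KO sham, -0.02 to 0.19 for WT TAC). These counts overstate how far the medians were put to the test. Other floors, trend and robust, the replicate block and leaving out an array of a group not compared left the median at its main value. Between the TAC groups it was -0.12 after median centring and -0.08 under quantile normalization, against -0.31 as deposited. After median centring, the all-gene median became -0.12 in WT TAC against WT sham, 0.13 in KO TAC against KO sham, 0.22 between the TAC groups and 0.25 in the interaction. The number of members called was 1 for KO TAC against KO sham and 1 against WT TAC. It was 0 in both under quantile normalization, median centring, no filter on dim genes, averaged probe sets, only the arrays compared, the spike-in covariate and without the 3 arrays of extreme spike-ins. It was 3 and 10 with the dimmest 60% left out, 5 and 17 in limma with trend and robust, and 3 and 3 with array weights, all lower. The share of all genes called under these settings is not given here, so the counts cannot be set against a background. With the replicate number as a block the number of members called was 0 and 0. The labels do not say what same-numbered arrays share, and 7 of 16 arrays correlated best with their own number. With 1 array left out the number of members called ranged from 0 to 2 against KO sham and from 0 to 3 against WT TAC. The counts stayed at 0 in every alternative run for the 2 comparisons with WT sham and for the interaction. The dim probe sets of Cox4i2, Cox7c and Cox8c gave the largest standard errors among the members.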
